A study of Mus musculus with 384 samples.

Results

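The bone morphogenetic protein (BMP) pathway and the Id genes were followed through 10 genes of the 31617 genes listed in the count table. They are the ligands Bmp4 and Bmp7, the receptor Bmpr1a, the signal transducers Smad1 and Smad5, the inhibitor Smad6, and Id1, Id2, Id3 and Id4. Rows were taken by the Ensembl identifier of each symbol. The genes were selected on earlier results of these data: Id3 was chosen by its summed level and its share of positive cells, near absent in the line AFX6 and present in the other 3 lines, so that difference is described here without a test.

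The series holds Smart-seq2 profiles of 384 single mouse cells, 96 from each of 4 lines. The formative stem (FS) cell lines 5ar1 and 5ar2 were both maintained in the medium that the labels call A3XR and the methods AloXR. This medium held activin at 3 ng/ml, XAV939 at 2 μM, which blocks canonical Wnt signaling through tankyrase, and BMS493 at 1.0 μM, an inverse agonist of retinoic acid receptors. The epiblast stem cell (EpiSC) line AFX6 was grown in AFX, with activin at 20 ng/ml, Fgf2 and XAV939 at 2 μM. The EpiSC line AF32 was kept in AF, which lacks XAV939 and otherwise holds what AFX does. None of these media contained BMP, and the labels name no further treatment and no genotype. The labels name no separate cultures within a line, so each line was taken as 1 sample. Thus 2 FS lines stand against 2 EpiSC lines, and between the EpiSC lines medium and line cannot be told apart.

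BMP ligands bind paired type I and type II serine/threonine kinase receptors, which phosphorylate Smad1, Smad5 and Smad9. These join Smad4, enter the nucleus and switch on target genes, of which the Id genes are the best known. Id proteins lack a DNA-binding domain and hold E proteins such as Tcf3 in inactive dimers, and in the early mouse embryo BMP signals from the extraembryonic ectoderm act on the epiblast in germ cell and mesoderm formation.

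Levels are given as summed CPM, the counts of a gene over all kept cells of a line per 1000000 counts of that line. A cell was counted as positive for a gene at 5 CPM or more. Cells with at least 3000000 counts were kept: 90 of 5ar1, 90 of 5ar2, 66 of AFX6 and 80 of AF32, with 3022666 to 6686007 counts each. The median number of detected genes was 11371 and 11568 in the FS lines, and 10328 and 10330 in AFX6 and AF32. Intervals of levels, shares and folds are 95% intervals that cover counting error only, since reads carry no molecular identifiers and cells of a line are not independent cultures. In sums over a line, fewer positive cells and less RNA per cell cannot be told apart, so the share of positive cells stands beside each level.

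Promoter windows of 8 of the 10 genes were found in the RefSeq table for GRCm38.p6, from 250 bases before to 50 bases after each start site. Id1 and Bmp7 are named only. The windows were searched for GGCGCC, the core of BMP response elements and its own reverse complement, and for the Smad-binding letters GTCT on either strand. GGCGCC was present in 5 of 10 windows (Id2, Id4, Bmpr1a and 2 of 3 windows of Smad5, which overlap and share a single match), against 11.9% of all 32851 promoter windows. GTCT on either strand was present in 8 of 10, against 88.0% of all windows. A match of letters is a description and no binding site. The sequences below are shown for Id2, Id3 and Id4, the Id genes with a window, since the levels of the Id genes differ between the lines. Capitals mark the GTCT motif in the pieces from Id3 (reversed in the first), which lie in an annotated 5′ UTR of GENCODE M21, on the plus strand at chr4:136143643-136143672 and chr4:136143741-136143770, and GGCGCC in Id2 (minus strand, chr12:25096254-25096342) and Id4 (plus strand, chr13:48260866-48261115). The Id2 piece lies upstream of the first annotated exon base of its window, in an intron of the longer GENCODE M21 transcript.
Id3, first piece: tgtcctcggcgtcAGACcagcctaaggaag
Id3, second piece: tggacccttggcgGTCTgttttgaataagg
Id2: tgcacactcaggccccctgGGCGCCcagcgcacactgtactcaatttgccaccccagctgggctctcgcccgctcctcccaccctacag
Id4: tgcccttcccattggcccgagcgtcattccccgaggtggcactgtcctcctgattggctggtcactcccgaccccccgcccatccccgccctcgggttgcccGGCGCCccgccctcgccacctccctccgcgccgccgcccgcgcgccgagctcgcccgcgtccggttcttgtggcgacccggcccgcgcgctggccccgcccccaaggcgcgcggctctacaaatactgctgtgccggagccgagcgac

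FS and EpiSC lines were first compared over all genes, with lines as replicates. With limits of 0.05 on the adjusted p and 1.4 on the size of the log2 fold change, edgeR's quasi-likelihood test called 0 of the 10 genes and 0 of 22606 genes tested (0%). At an unadjusted p under 0.05 it picked 1 of the 10 genes, Bmp7, against 16.1% of all genes tested (3636). DESeq2 called 1 of the 10, again Bmp7, as lower in FS lines, against 3.39% of the 21729 genes to which it gave an adjusted p (3.3% were called as higher). The common dispersion between lines was 0.653. The median log2 fold change of FS over EpiSC lines was −0.13 for the 10 genes and −0.01 for all genes tested. In summed CPM, both FS lines lay above both EpiSC lines for 0 of the 10 genes (26.8% of all genes) and both EpiSC lines above both FS lines for 3, which were Id4, Bmp7 and Smad5 (21.5% of all genes). For the other 7 the lines of both classes overlapped. With cells of at least 1000000 counts, Id4 in 5ar2 (0.313 CPM) exceeded AFX6 (0.265) and Smad5 in 5ar1 (21.18) exceeded AF32 (21.09). Of Id4, Bmp7 and Smad5, only Bmp7 then kept both EpiSC lines above both FS lines.

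**Figure D1:**
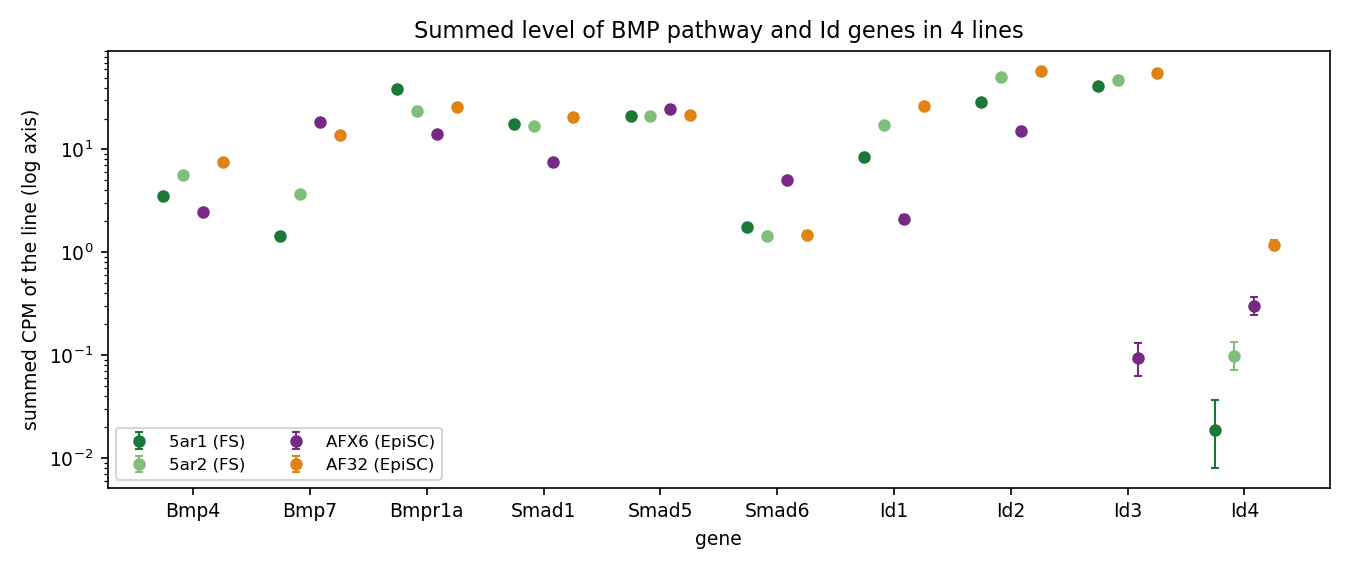
Summed CPM of each gene (y axis, log scale) in the FS lines 5ar1 and 5ar2 and the EpiSC lines AFX6 and AF32, with exact Poisson 95% intervals that are mostly smaller than the points. AFX6 was the lowest line for Bmp4, Bmpr1a, Smad1, Id1, Id2 and Id3 and the highest for Bmp7, Smad5 and Smad6.

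Of the ligands, Bmp7 was higher in both EpiSC lines than in both FS lines, and Bmp4 was low in every line. Bmp7 (chr2:172868012-172940321), a ligand of the BMP5/6/7 branch, had a summed CPM of 1.434 in 5ar1 and 3.65 in 5ar2, and in the EpiSC lines 18.6 in AFX6 and 13.9 in AF32. The lowest EpiSC line was thus above the highest FS line. The means were 2.543 ± 1.568 (SD, n = 2 lines) in FS cells and 16.2 ± 3.35 (SD, n = 2 lines) in EpiSCs, a log2 fold change of −2.68 with an SE of 0.62, for which edgeR's quasi-likelihood test gave an adjusted p of 0.190 and DESeq2 an adjusted p of 0.000279. Positive cells numbered 4 of 90 in 5ar1, 12 of 90 in 5ar2, 16 of 66 in AFX6 and 16 of 80 in AF32. The highest cells reached 51.0, 62.7, 166 and 340 CPM in the same order, and the tenth of the cells with the most Bmp7 held 99.6%, 90.5%, 70.6% and 80.0% of its CPM.

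Bmp4 (chr14:46383520-46390669), which in the embryo is made by the extraembryonic ectoderm, had a summed CPM of 3.50 in 5ar1 and 5.68 in 5ar2, and in the EpiSC lines 2.468 in AFX6 and 7.58 in AF32. The lines of both classes overlapped, with a log2 fold change of −0.12 (SE 0.72) and an adjusted p of 0.969 by edgeR. It was positive in 8 of 90, 14 of 90, 4 of 66 and 8 of 80 cells, or 6.06% to 15.6% of the cells of a line. Few cells set its level: without the cells under 50 CPM of Pou5f1 (1 of 5ar2 and 3 of AF32), it was 3.05 CPM in 5ar2 and 4.25 in AF32. Gm15217 and the antisense gene Gm15222 overlap Bmp4 on the other strand, and without strand their reads cannot be told apart.

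Of 15 ligands listed for the family, 11 were in the table and 10 were tested, of which 0 were called by edgeR. Both FS lines were above both EpiSC lines for 5 of the 10 (26.8% of all genes) and below for 2 (21.5%). DESeq2 called 4, Bmp7 and Gdf6 as lower (3.39% of all genes) and Bmp6 and Bmp8b as higher in FS lines (3.3%). The highest levels of Bmp6 and Bmp8b were 1.112 and 2.569 CPM, in 5ar1, with 4 and 8 positive cells. Gdf6 had 0.0139 and 1.127 CPM in 5ar1 and 5ar2, against 9.87 and 17.5 CPM in AFX6 and AF32. Gdf3, a Nodal-related ligand, was the only ligand with 20 CPM in any line. Its summed CPM was 14.1 in 5ar1 and 52.2 in 5ar2, and in the EpiSC lines 0.204 in AFX6 and 8.02 in AF32, with 27, 26, 1 and 10 positive cells. Both FS lines were above both EpiSC lines, but the FS lines differed from each other by more than the lower of them differed from AF32, and the adjusted p was 0.521 by edgeR. Bmp2, Bmp5, Bmp6, Bmp8a, Bmp8b and Gdf5 stayed under 6 CPM in every line.

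Bmpr1a, the main type I receptor for Bmp2 and Bmp4, was present in most FS cells and in fewer AFX6 cells. Its gene (chr14:34410734-34503341) had a summed CPM of 38.6 in 5ar1 and 23.6 in 5ar2, and in the EpiSC lines 14.2 in AFX6 and 25.7 in AF32. AF32 lay between the FS lines and AFX6 lay below all others, so the classes overlapped (log2 fold change 0.64, SE 0.43, edgeR adjusted p = 0.584). The positive cells were 72 of 90, 64 of 90, 28 of 66 and 44 of 80, or 75.6% ± 6.285 (SD, n = 2 lines) in FS lines against 48.7% ± 8.89 (SD, n = 2 lines) in EpiSC lines. The shares of the classes did not overlap. A two-sided exact permutation test over the lines gave 0.333, below which p cannot go with 2 lines a class. The median cell had 30.5 CPM in 5ar1 and 17.7 in 5ar2, and in the EpiSC lines 0.998 in AFX6 and 9.20 in AF32. Bmpr1a overlaps the antisense gene Gm17110.

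For shares of positive cells as a whole, both FS lines were above both EpiSC lines for 5 of the 10 genes (39% of all genes tested), namely Id2, Id3, Bmpr1a, Smad1 and Smad5. Both EpiSC lines were above for 2 (8.7% of all genes tested), Id4 and Bmp7. A share strictly lowest in AFX6 was seen for 7 of the 10 genes. Of the 6 with at least 20 CPM in a line it was seen for 6, against 57.5% of all 8122 such genes, and since Id3 was chosen for this share nothing is read from the count.

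**Figure D2:**
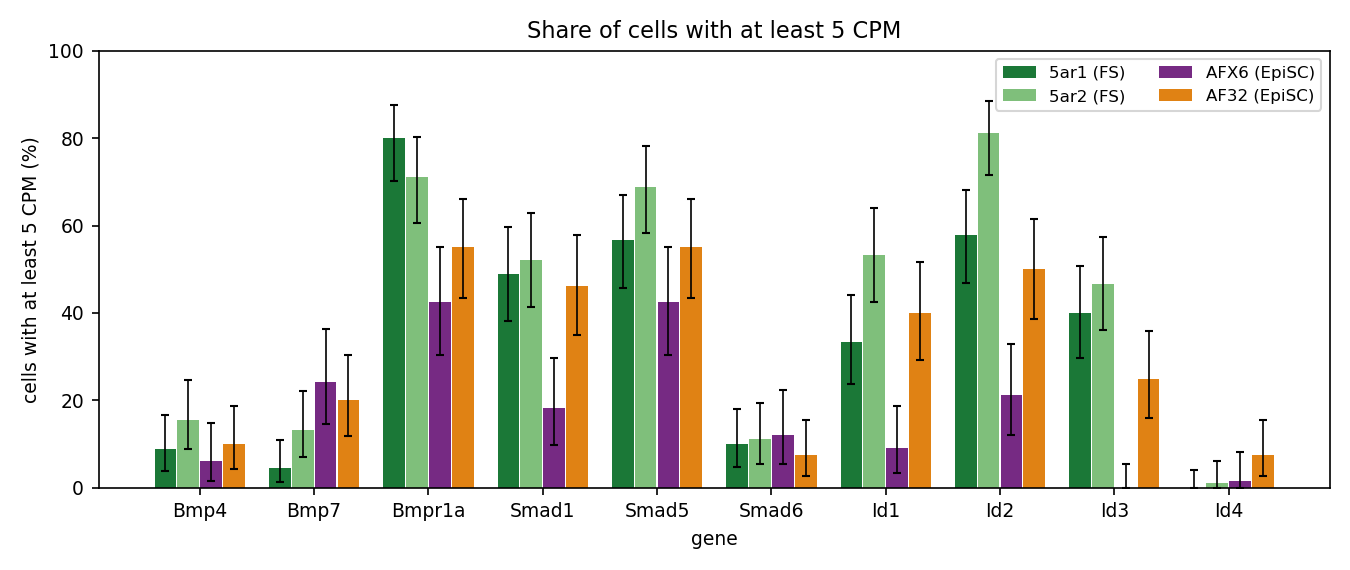
Percentage of kept cells with at least 5 CPM of each gene (y axis) in each line, with exact Clopper-Pearson 95% intervals. Bmpr1a was positive in 80.0% of 5ar1 cells and 42.4% of AFX6 cells, and Id3 in 0 of 66 AFX6 cells.

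Of 12 receptors and co-receptors listed, 11 were in the table and tested and 0 were called by edgeR. Acvr2b, a type II receptor shared with activin, had 47.8 and 38.8 CPM in 5ar1 and 5ar2 and 34.7 CPM in both AFX6 and AF32. Rgmb, a BMP co-receptor, had 22.8, 16.1, 23.7 and 46.3 CPM, and Neo1, which binds RGM proteins, had 11.4, 13.1, 11.5 and 22.0 CPM. Both were highest in AF32. Bmpr2, the type II receptor devoted to BMP, was at 7.70, 2.569, 6.03 and 11.9 CPM, and Bmpr1b stayed under 3 CPM.

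Smad1 and Smad5, which carry the BMP signal to the nucleus, were present in all lines. Smad1 (chr8:79338395-79399518) had a summed CPM of 17.7 in 5ar1 and 17.1 in 5ar2, and in the EpiSC lines 7.61 in AFX6 and 20.6 in AF32, with 44 of 90, 47 of 90, 12 of 66 and 37 of 80 positive cells. The FS lines had a mean of 17.4 CPM ± 0.457 (SD, n = 2 lines), with AFX6 below both and AF32 above both (log2 fold change 0.31, SE 0.54, edgeR adjusted p = 0.874). Smad5 (chr13:56703010-56742377) had 21.1, 21.3, 25.0 and 21.8 CPM, the smallest ratio of highest to lowest line of the 10 genes, and was positive in 51 of 90, 62 of 90, 28 of 66 and 44 of 80 cells. The counting intervals of 5ar1 (20.6–21.5), 5ar2 (20.9–21.7) and AF32 (21.3–22.2) overlapped, and the log2 fold change between the classes was −0.15 (SE 0.25, edgeR adjusted p = 0.864). In AFX6 the level of Smad5 was the highest and its share of positive cells the lowest of the 4 lines, with a median of 0.329 CPM per cell and an upper quartile of 47.9. The gene overlaps 3 small RNA genes on its own strand.

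Of the 4 BMP Smads and partners listed, 3 were tested and 0 were called by edgeR. Smad4, the common partner, had 31.4, 26.1, 25.8 and 34.3 CPM in 5ar1, 5ar2, AFX6 and AF32. Smad9, the third BMP-responsive Smad, reached 1.563 CPM in AF32, in 1 positive cell, and did not exceed 0.0046 CPM in the other lines.

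Smad6, an inhibitory Smad that blocks BMP receptor signaling and is itself a BMP target, was low but highest in AFX6. The gene (chr9:63953076-64022059) had a summed CPM of 1.766 in 5ar1 and 1.433 in 5ar2, and in the EpiSC lines 5.08 in AFX6 and 1.464 in AF32. The counting intervals of 5ar2 and AF32 overlapped. The intervals of the shares of positive cells overlapped in all lines, with 9 of 90, 10 of 90, 8 of 66 and 6 of 80 cells. The highest AFX6 cell had 63.8 CPM and the highest 5ar1 cell 81.2 CPM. That 5ar1 cell had 3.68 CPM of Pou5f1, and without the 2 cells of 5ar1 under 50 CPM of Pou5f1 the level there was 1.07. The classes overlapped (log2 fold change −1.05, SE 0.83, edgeR adjusted p = 0.654).

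All 12 listed intracellular inhibitors were tested and 0 were called by edgeR, with 10 of them at 20 CPM or more in a line. Both EpiSC lines were above both FS lines for 4 (21.5% of all genes), Smad7, Skil, Tob1 and Smurf2. Both FS lines were above both EpiSC lines for 2 (26.8% of all genes), Ppm1a and Fkbp1a. Smad7 is an inhibitory Smad, Skil a corepressor of Smads and Tob1 an antiproliferative protein that binds them. Smad7 had 10.3, 6.894, 16.3 and 21.5 CPM, Skil 44.4, 30.6, 77.4 and 75.5 CPM, and Tob1 16.0, 16.1, 27.0 and 37.3 CPM in 5ar1, 5ar2, AFX6 and AF32. Their log2 fold changes of −1.14, −1.04 and −1.003 had adjusted p values of 0.248, 0.192 and 0.207 by edgeR and 0.0372, 0.0116 and 0.0133 by DESeq2, and none passed the limit on the fold. Smurf2, a ubiquitin ligase for Smads, had 13.4, 8.37, 17.7 and 25.1 CPM. Bambi, a pseudoreceptor, differed more between the FS lines than between the classes, with 134 CPM in 5ar1 and 45.1 in 5ar2, and in the EpiSC lines 37.9 in AFX6 and 70.5 in AF32. The phosphatases Ppm1a (85.1, 60.2, 42.6 and 53.9 CPM), Ctdsp1 (30.8, 24.6, 13.6 and 30.4 CPM) and Ctdsp2 (39.1, 21.8, 38.2 and 64.6 CPM), the corepressor Ski (21.1, 17.4, 18.5 and 22.2 CPM) and Fkbp1a, which holds type I receptors inactive (663, 685, 543 and 517 CPM), made up the others.

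Of 17 secreted antagonists listed, 14 were in the table and 13 were tested. EdgeR called 0 of these and DESeq2 called 2, against 3.39% of all genes called as lower and 3.3% as higher in FS lines. The 4 with at least 20 CPM in a line were Chrd (13.4, 1.299, 5.44 and 20.4 CPM in 5ar1, 5ar2, AFX6 and AF32), Fst (9.44, 8.44, 1.00 and 24.1 CPM), Fstl1 (106, 115, 111 and 176 CPM) and Twsg1 (33.0, 31.6, 37.6 and 35.9 CPM). All but Twsg1 were highest in AF32. Chrd, the chordin gene, was positive in 32 of 90 cells of 5ar1 and 4 of 90 of 5ar2, and Fst, the follistatin gene, in 3 of 66 cells of AFX6 and 29 of 80 of AF32. Nog, the noggin gene, had 0.290, 1.557, 4.89 and 6.329 CPM.

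Among the targets, Id1, Id2 and Id3 followed the same order of EpiSC lines, with AFX6 the lowest of the 4 lines and AF32 the highest, while the FS lines lay between. For the 10 genes as a set, AFX6 was the lowest line for 6 and the highest for 3 (highest for 26.5% of all genes tested). Among the 6 genes with at least 20 CPM in a line AFX6 was the lowest for 5, against 34% of all such genes. AF32 exceeded AFX6 by more than 1.4 on the log2 scale for 6 genes (16.5% of all genes tested), Id1, Id2, Id3, Id4, Bmp4 and Smad1, and AFX6 exceeded AF32 by as much for 1 (13.1%), Smad6. Since Id3 was chosen for its level in AFX6, nothing is read from these counts. With 1 line each, AFX6 and AF32 were not tested against each other.

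Id1 (chr2:152736251-152737410) had a summed CPM of 8.44 (8.17–8.72) in 5ar1 and 17.2 (16.9–17.6) in 5ar2, and in the EpiSC lines 2.126 (1.972–2.288) in AFX6 and 26.4 (25.9–26.9) in AF32. It was positive in 30 of 90, 48 of 90, 6 of 66 and 32 of 80 cells. The classes overlapped, with means of 12.8 ± 6.222 (SD, n = 2 lines) and 14.3 ± 17.2 (SD, n = 2 lines) and an adjusted p of 0.983 by edgeR. Between the EpiSC lines the fold of AF32 over AFX6 was 12.4 (exact conditional interval 11.5–13.4), and between the FS lines that of 5ar2 over 5ar1 was 2.04 (1.963–2.125). In AFX6 the 7 cells with the most Id1 held 98.4% of its CPM, and the highest had 29.2 CPM, against 164 CPM in the highest cell of 5ar1, 99.2 in that of 5ar2 and 216 in that of AF32. With all AFX6 cells of at least 1000000 counts the level was 3.65 CPM.

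Id2 (chr12:25093799-25097140) was the most widely expressed of the Id genes. Its summed CPM was 28.9 (28.4–29.4) in 5ar1 and 50.2 (49.6–50.9) in 5ar2, and in the EpiSC lines 15.0 (14.5–15.4) in AFX6 and 57.6 (56.9–58.4) in AF32, and its positive cells were 52 of 90, 73 of 90, 14 of 66 and 40 of 80. The shares of the FS lines, 69.4% ± 16.5 (SD, n = 2 lines), were both above those of the EpiSC lines, 35.6% ± 20.4 (SD, n = 2 lines), and the exact permutation test gave the smallest p it can, 0.333. The levels overlapped (log2 fold change 0.13, SE 0.72, edgeR adjusted p = 0.965). The median cell had 11.5, 33.6, 0 and 7.59 CPM. The place of AF32 as the highest line rested on few cells: 1 of its cells had 1483 CPM, and without its 3 cells under 50 CPM of Pou5f1 the level was 42.3, under that of 5ar2.

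Id3 (chr4:136143497-136145755) was the Id gene with the highest level per kilobase of exon in 5ar1 (23.2 CPM per kb), 5ar2 (26.6) and AF32 (31.0), and the lowest in AFX6 (0.0520). The summed CPM was 41.6 (41.0–42.2) in 5ar1 and 47.7 (47.1–48.4) in 5ar2, and in the EpiSC lines 0.0932 (0.0633–0.132) in AFX6 and 55.5 (54.8–56.3) in AF32. In 5ar1, 36 of 90 cells were positive (40%, 29.8–50.9%), in 5ar2, 42 of 90 (46.7%, 36.1–57.5%), and in AF32, 20 of 80 (25%, 16.0–35.9%). AFX6 had 0 positive cells of 66, which allows a share of up to 4.55% if 3 cells are taken as the limit of a count of 0, and of up to 5.44% by the exact interval. AF32 thus had the highest level with a lower share of positive cells than either FS line: the 8 AF32 cells with the most Id3 held 73.9% of its CPM, against 59.6% and 54.4% for the 9 highest cells of 5ar1 and 5ar2.

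Id3 was split between cells with much and cells with almost none. In 5ar1, 29 cells had no count, 23 were under 1 CPM, 2 lay from 1 to 5, 7 from 5 to 20, 15 from 20 to 100 and 14 above. In 5ar2 these numbers were 20, 27, 1, 9, 18 and 15. In AF32, 33 cells had no count and 27 were under 1 CPM, 0 lay from 1 to 20, 7 from 20 to 100 and 13 above. In AFX6 the whole line had 31 counts of Id3, with 0 counts in 41 cells, 1 in 20, 2 in 4 and 3 in 1, and the highest cell had 0.631 CPM. The AFX6 level was 0.193% of the mean of the other 3 lines, beside 0.278% for the sum of 4 Y-linked genes (Ddx3y, Eif2s3y, Kdm5d and Uty), whose highest sum in an AFX6 cell was 1.735 CPM. The median sum per cell was 0.512 CPM in AFX6, against 179 in 5ar1, 146 in 5ar2 and 230 in AF32. AFX6 thus also differed from the other 3 lines in Y-linked expression, and the part of this in its levels was not tested.

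**Figure D3:**
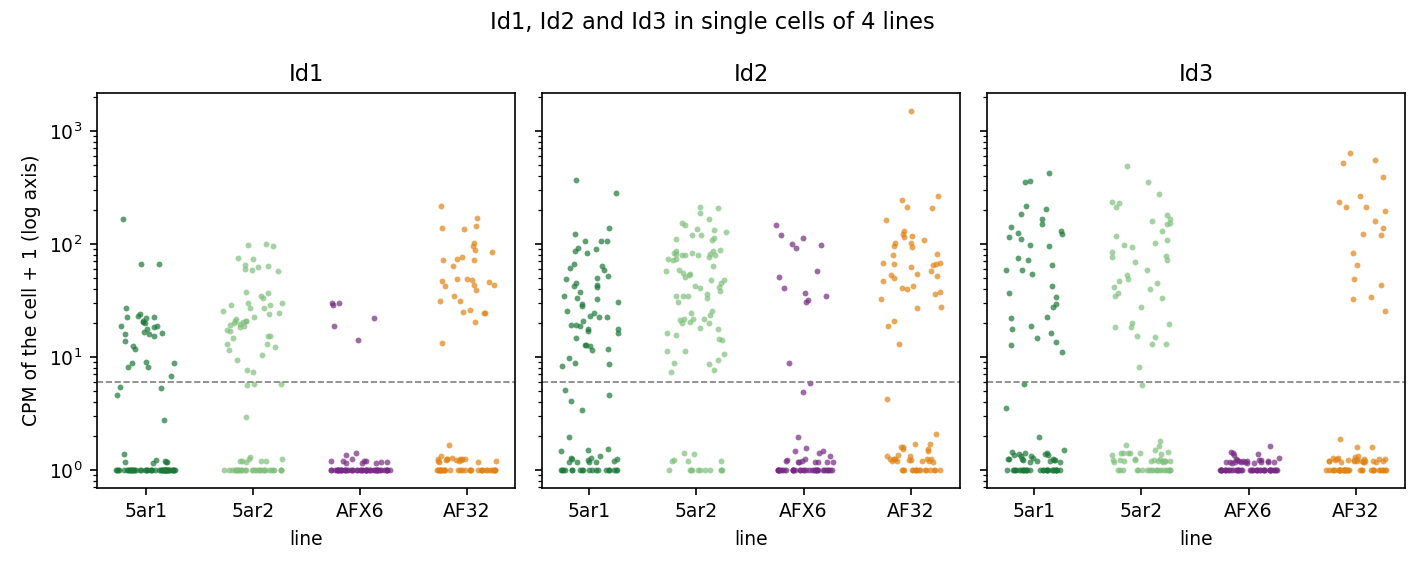
CPM plus 1 of Id1, Id2 and Id3 (y axis, log scale) in each of the 326 kept cells, by line, with a dashed line at 5 CPM. Cells lie in an upper cloud and in a band at or near 0 CPM, and for Id3 all 66 AFX6 cells lie in the lower band, at 0.631 CPM or less.

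A level under 1 CPM in AFX6 with at least 20 CPM in each of the other lines was found for 3 of 8122 genes (0.0369%), Id3 and the Y-linked genes Ddx3y and Eif2s3y. This restates the values by which Id3 was chosen, and nothing is read from the count. The genes around Id3, examined after its values had been seen, did not share this pattern. Within 500 kb on either side 12 other genes had at least 5 CPM in a line, and their AFX6 levels were 45.0% to 145% of the mean of the other lines, with a median of 86.0%. The nearest on each side were Rpl11, a ribosomal protein gene, with 1302 CPM in AFX6 against 725 to 997 CPM in the other lines, and Hnrnpr, an RNA-binding protein gene, with 90.0 CPM against 129 to 166. Their starts lie at −90.1 kb and 167.4 kb from that of Id3. Besides Id3, no gene with 5 CPM in a line started between them, so a change limited to that stretch was not tested. The mean relative expression of the genes of chromosome 4 other than Id3, divided by that of the median autosome, had a median of 0.999 over AFX6 cells.

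**Figure D4:**
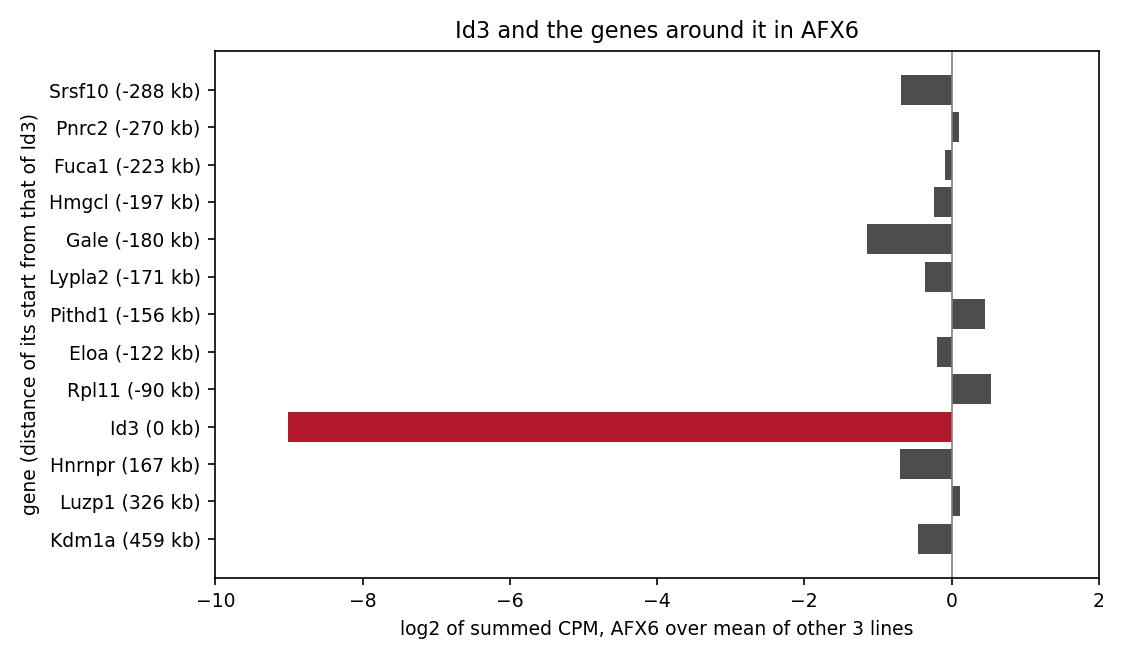
Log2 ratio of summed CPM in AFX6 to the mean of the other 3 lines (x axis) for Id3 and the 12 genes within 500 kb that reach 5 CPM, ordered by the distance of their starts from that of Id3 (y axis, kb). Id3 lies at −9.02 and the other genes between −1.15 and 0.54.

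Id4 (chr13:48261228-48266026) was close to absent. It had a summed CPM of 0.0186 in 5ar1 and 0.0989 in 5ar2, and in the EpiSC lines 0.301 in AFX6 and 1.186 in AF32, and 0 of 90, 1 of 90, 1 of 66 and 6 of 80 positive cells. Both EpiSC lines were above both FS lines (log2 fold change −3.64, SE 1.433), with an adjusted p of 0.337 by edgeR and 0.122 by DESeq2. This order was lost with cells of at least 1000000 counts. Id4 overlaps the antisense gene A330033J07Rik and the noncoding gene Gm49291.

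Of 24 BMP targets listed, which include the Id genes, Smad6 and Smad7, 23 were in the table and 19 were tested. EdgeR called 0. DESeq2 called 2, Hand1 as higher in FS lines (3.3% of all genes) and Tbx3 as lower (3.39%). Tbx3 reached 1.231 CPM in AF32, in 1 positive cell. Of the listed targets, 14 stayed under 5 CPM in every line. Hand1, a target active in extraembryonic and lateral mesoderm, was confined almost to 5ar1, with 23.5 CPM and 32 of 90 positive cells, against 0.0276 CPM and 0 of 90 in 5ar2, 0.198 CPM and 1 of 66 in AFX6, and 0.261 CPM and 1 of 80 in AF32. The FS lines therefore stood apart from each other for Hand1 (edgeR adjusted p = 0.442, DESeq2 adjusted p = 0.0204). Msx1 was at 3.88, 4.51, 1.185 and 0.0197 CPM and Msx2 at 2.521, 0.520, 0.00301 and 1.169 CPM.

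The E proteins, which Id proteins bind, were present in all lines. Of 11 genes listed for E proteins, other bHLH factors and the zinc-finger factors Zeb1 and Zeb2, 9 were tested and edgeR called 0. Tcf3 (E2A) had 227, 190, 160 and 207 CPM in 5ar1, 5ar2, AFX6 and AF32, Tcf12 (HEB) 55.3, 40.5, 39.7 and 50.0 CPM, and Tcf4 (E2-2) 28.0, 23.6, 19.6 and 39.2 CPM. Each was lowest in AFX6 (34% of all genes with at least 20 CPM in a line), Tcf12 by a small margin under 5ar2, and nothing is read from this. Hes1, a repressor of the Notch pathway, had 21.9, 55.0, 109 and 108 CPM (log2 fold change −1.50, SE 0.49; adjusted p = 0.266 by edgeR and 0.0260 by DESeq2). Hes6 had 178, 120, 150 and 219 CPM and Zeb1 18.0, 14.7, 12.2 and 34.9 CPM.

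Id1, Id2 and Id3 were also counted together in single cells. In AFX6, 48 of 66 cells (72.7%, 60.4–83.0%) had none of them at 5 CPM, against 16 of 90 in 5ar1 (17.8%, 10.5–27.3%), 5 of 90 in 5ar2 (5.56%, 1.828–12.5%) and 23 of 80 in AF32 (28.8%, 19.2–40.0%). Exactly 1 was found in 35 cells of 5ar1, 28 of 5ar2, 16 of AFX6 and 29 of AF32, and exactly 2 in 34, 36, 2 and 21 cells. All 3 were found in 5, 21, 0 and 7 cells. Since Id3 was chosen for its near absence in AFX6, the 0 cells there with all 3 genes follow from that choice, and the share with none is raised by it.

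**Figure D5:**
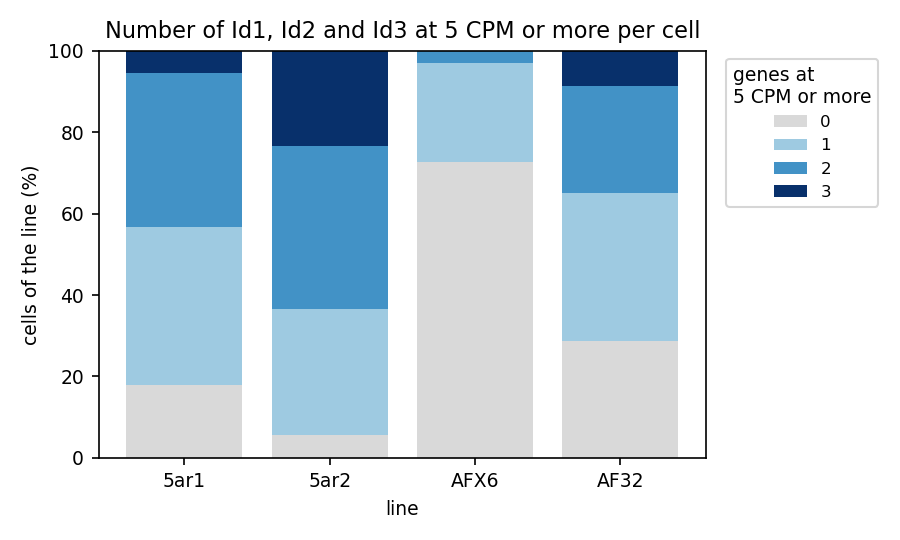
Percentage of the kept cells of each line (y axis) in which 0, 1, 2 or 3 of Id1, Id2 and Id3 reached 5 CPM. Cells with 0 of the genes made up 72.7% of AFX6 and 5.56% of 5ar2, and cells with all 3 made up 23.3% of 5ar2. Id3 was chosen for its near absence in AFX6, which lowers the number of genes per cell there.

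Within a line, the levels of the genes were only weakly related from cell to cell. Over 57 combinations of a gene pair and a line in which both genes were positive in at least 20% of the cells, Spearman's rho ran from −0.221 to 0.223 with a median of 0.0334. The cells of a line are not independent cultures and differ in depth, counts are sparse, and no p is given. For Id1 and Id3, rho was 0.115 in 5ar1, 0.169 in 5ar2 and 0.149 in AF32, and for Id1 and Id2 it was −0.0739, −0.0446 and 0.198 in these lines. The rho of Id3 with the number of detected genes was 0.270 in 5ar1, 0.212 in 5ar2 and −0.0662 in AF32, and it was 0.353 in AFX6, where no cell had more than 3 counts of Id3.

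Over all 326 cells, the genes whose log2(CPM + 1) was most like that of Id3, among 8121 genes with at least 20 CPM in a line, were Zfp36l2, Zc3h7b, Trim28, Alyref, Prpf19, Map3k7, Fgf5 and Npepl1. Pearson's r was 0.275 to 0.310 for these 8, which is weak. The cells come from lines that differ in level, and Id3 was chosen for its level in AFX6, so that differences between lines enter this order. Within lines, r of the 8 genes with Id3 was 0.125 to 0.304 in 5ar1, −0.0464 to 0.305 in 5ar2 and −0.00536 to 0.470 in AF32. Fgf5, a marker of the post-implantation epiblast, had 229, 272, 30.7 and 44.9 CPM in 5ar1, 5ar2, AFX6 and AF32. Map3k7 (TAK1), a kinase downstream of BMP and TGF-β receptors, had 29.3, 17.8, 11.0 and 23.4 CPM. For Id1, the genes with the highest mean of the rho within each line, among 5742 genes with at least 20 CPM in every line, were Spc25, Lbr, Gm9008, Nek2, Foxm1, Ccnf, Pnrc2 and Pogz. Their mean rho was 0.215 to 0.252, against a median of 0.0296 over these genes.

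Chromosomes that carry Id1, Bmp7 and Smad1 had a raised mean expression in many AF32 cells. Chromosome 2, with Id1 and Bmp7, exceeded 1.2 times the median autosome in 29 of 80 AF32 cells, and chromosome 8, with Smad1, in 41 of 80. In the AF32 cells in which the gene's own chromosome was not raised, Id1 was at 29.6 CPM (26.4 in all cells), Smad1 at 18.2 CPM (20.6 in all cells) and Bmp7 at 10.5 CPM (13.9 in all cells). The share of positive cells for Bmp7 was 9.80% in these 51 cells and 37.9% in the 29 with a raised chromosome 2, against 13.3% in 5ar2, so that both EpiSC lines no longer had the higher share. Smad1 was positive in 41.0% of the 39 cells without and 51.2% of the 41 with a raised chromosome 8, and Id1 in 41.2% and 37.9%. The part of the raised chromosomes in the AF32 levels was not tested. The chromosome of Id3 was not raised in any kept cell.

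Pou5f1, a core pluripotency factor, had 644 and 490 CPM in 5ar1 and 5ar2, 529 in AFX6 and 533 in AF32. Nanog (28.5, 33.5, 159 and 400 CPM) and Sox2 (17.4, 17.5, 4.88 and 12.7 CPM) differed more between these lines. Of the 11 tested genes of the pluripotency list, both FS lines were above both EpiSC lines for 6 (26.8% of all genes). Both EpiSC lines were above for 1 (21.5%), Nanog. The highest levels of the list were those of Dnmt3b (2243, 1434, 493 and 616 CPM) and Utf1 (799, 723, 1057 and 302 CPM). Esrrb, Klf4 and Tfcp2l1 did not exceed 2.784 CPM in any line. Pou5f1 was under 50 CPM in 2 cells of 5ar1, 1 of 5ar2, 1 of AFX6 and 3 of AF32, of which 5 were positive for Id3. In 5ar2, 1 cell had 489 CPM of Id3, 217 of Bmp4 and 35858 of Acta2. In AF32, 1 had 520 CPM of Id3, 89.4 of Bmp4 and 2369 of T, 1 had 262 CPM of Id3, 143 of Bmp4 and 130 of Bmp7, and 1 had 81.5 CPM of Id3 and 1483 of Id2. In 5ar1, 1 had 64.1 CPM of Id3 and 81.2 of Smad6, and 1 had 368 CPM of Id2 without Id3. The AFX6 cell had no count of Id1, Id2 or Id3. Without these cells Id3 was at 41.8 CPM in 5ar1 and 42.2 in 5ar2, and in the EpiSC lines 0.0941 in AFX6 and 44.2 in AF32.

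Markers of other cell types were read as whole lists. EdgeR called 0 of their genes, as of all genes. DESeq2 called 4 of 11 tested pluripotency genes, 3 of 8 streak and endoderm genes and 1 of 5 neural genes. It also called 2 of 7 extraembryonic genes, 0 of 7 mesenchyme genes and 0 of 3 germ cell genes. Of all genes, DESeq2 called 3.39% as lower and 3.3% as higher in FS lines, and nothing is read from the counts of these short lists. In 5ar1, 5ar2, AFX6 and AF32, pluripotency genes (11 of 12 in the table) summed to 4203, 3183, 2400 and 2028 CPM, primitive streak and endoderm genes (10 of 10) to 68.5, 60.2, 14.7 and 124 CPM, and neural genes (8 of 8) to 339, 138, 19.6 and 87.9 CPM, mostly Tubb3. The streak sums rested on different genes. Eomes made up most of them in 5ar1 and 5ar2 (61.3 and 48.2 CPM). In AF32, Fgf8 and T did (66.3 and 39.1 CPM), with T in 2 positive cells. Extraembryonic, amnion and surface ectoderm genes (8 of 12) summed to 26.0, 2.665, 5.34 and 7.49 CPM, where Hand1 made up the value in 5ar1. Mesenchyme and feeder genes (8 of 8) summed to 28.3, 580, 66.7 and 23.5 CPM, mostly Acta2 in 5ar2, and germ cell genes (6 of 7) to 2.03, 1.509, 2.598 and 3.11 CPM. Sums of the streak and neural lists were lowest in AFX6, as were the levels of Id1, Id2 and Id3, and their part in these levels was not tested.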

How the data were processed

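The authors aligned the reads of each cell to GRCm38.p6 with STAR 2.7.3a, counted uniquely mapped reads per gene with featureCounts 2.0.0, and deposited these counts for 384 cells. They also deposited sctransform-normalized values for 326 cells, a depth-corrected score, used here only as an alternative. Gene symbols, positions and exon lengths came from GENCODE M21 on the same build, a different annotation release from the one used for counting. The 10 genes and all gene lists were chosen with earlier results of these data known.

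Counts of the kept cells (at least 3000000 counts) were added up within each line. The 2 FS lines were set against the 2 EpiSC lines by the quasi-likelihood test of edgeR 4.0.16 in R 4.3.3, after filterByExpr and TMM scaling, with Benjamini-Hochberg adjustment. Shares have exact Clopper-Pearson intervals from scipy 1.17.1, levels exact Poisson intervals and folds exact conditional intervals. With fewer cells kept, AFX6 has the least precise shares. A count of 0 allows up to 3 counts, 0.449 to 0.993 CPM in a kept cell. For the chromosome ratio, CPM of 6689 autosomal protein-coding genes, those averaging 20 CPM or more, was scaled by the gene's average, limited to 3, averaged per chromosome and divided by the median autosome.

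Named from the lists were genes with at least 20 CPM in a line, the 3 highest marker genes of a list at most, and the 8 genes most like Id3 and Id1. Other genes named (such as Bmpr2, Smad9, Nog, Msx1, Msx2, Rpl11 and Hnrnpr) were chosen after their values were seen. Alternatives were DESeq2 1.42.0, limma 3.58.1 on log2(mean CPM + 1), other size factors, filters, depth limits, thresholds and denominators, thinning to 1000000 counts, and each line left out. The restriction to cells with 50 CPM of Pou5f1 was added after the data were seen.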

Additional observations from a re-analysis of the deposited data

Results flagged for a closer look

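The 58 cells under 3000000 counts entered no main comparison. Those of them with at least 1000000 counts entered only the alternative with that limit. In 13 combinations of a gene and a line, a cell under 3000000 counts had a higher CPM than any kept cell of its line. Each of these cells had more than 3 counts of the gene. Id3 reached 34.3 CPM in 1 AFX6 cell (97 counts of 2831598), against 0.631 CPM in the highest kept AFX6 cell. This cell had 380 CPM of Pou5f1, 988 CPM of Acta2 and 1.06 CPM of the 4 Y-linked genes, and 1 of 30 AFX6 cells under the limit was positive for Id3 (3.33%, exact interval 0.0844–17.2%). It was the only AFX6 cell of the 96 with 5 CPM of Id3.

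Other AFX6 cells under the limit had 251 CPM of Id1 (29.2 in the highest kept cell), 308 CPM of Id2 (145), 428 CPM of Bmp4 (103), 593 CPM of Bmp7 (166), 135 CPM of Bmpr1a (96.1), 251 CPM of Smad1 (123) and 177 CPM of Smad5 (105). The values for Id2, Bmp7 and Smad1 came from a single cell with 1284209 counts. In 5ar2 a single cell with 1332343 counts and 4.50 CPM of Pou5f1 had 72.1 CPM of Id4 (8.02 in the highest kept cell), 151 CPM of Bmpr1a (108) and 116 CPM of Smad1 (113), and another had 298 CPM of Bmp7 (62.7). The cell with 1332343 counts held all 96 Id4 counts of the 5ar2 cells under the limit. It raised Id4 in 5ar2 with cells of at least 1000000 counts. In AF32 1 cell had 235 CPM of Id4 (24.1). All of these cells are shallower than the kept ones, and the part of depth in these values was not tested.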

How the results depend on the processing

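No paired analysis was possible because the numbers in the labels count cells of separate lines, and the results rest on sums over a line. With DESeq2 1454 genes passed the threshold, and with each line left out (lowest 0, highest 0) and with each of the other alternatives run on this count 0 did. Of the 10 genes, DESeq2 added the call of Bmp7. Direction of the difference between FS and EpiSC lines was not fixed for 6 genes: with a line left out the log2 fold change ran from −1.02 to 2.564 for Id1, −0.53 to 1.371 for Id2, −0.30 to 8.87 for Id3, −0.71 to 0.86 for Bmp4, −0.23 to 1.1605 for Smad1 and −1.70 to 0.14 for Smad6, and limma gave 0.47 for Id1. Without AFX6 it reversed for Id2, Id3, Smad1 and Smad6 (−0.53, −0.30, −0.23 and 0.14), without AF32 for Id1 and Bmp4 (2.564 and 0.86), without 5ar1 for Id1 and Bmp4 (0.27 and 0.16) and without 5ar2 for Id2 (−0.33). With 1 line left in a class, that line is assumed to vary like the others.

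The level of Id3 in AF32 was 51.6 CPM with cells of at least 1000000 counts, 64.3 with at least 4000000, 50.8 as a mean over cells, 57.4 over protein-coding counts, 44.2 with 50 CPM of Pou5f1 and 51.3 in the authors' normalized values. It was 46.7 in 5ar1 with at least 4000000 counts, 42.2 in 5ar2 with 50 CPM of Pou5f1, and 0.366 in AFX6 with at least 1000000 counts, where 1 cell set the value. At least 1 count of Id3 was found in 67.8% of 5ar1, 77.8% of 5ar2, 37.9% of AFX6 and 58.8% of AF32 cells. In AFX6 these were 1 to 3 counts per cell. With 50 CPM as the limit, 24.4% of 5ar1 and 26.7% of 5ar2 cells had Id3. With cells of at least 1000000 counts Bmp4 was at 4.06 CPM in AFX6, Bmp7 at 5.83 in 5ar2 and Id4 at 0.313 in 5ar2. At this limit Id4 and Smad5 no longer had both EpiSC lines above both FS lines. With at least 4000000 counts Bmp4 was at 1.473 in AFX6 and Smad6 at 0.817 in 5ar1. AFX6 remained the lowest line for Id1 and Id2 in all 7 settings of the level, which share cells. It was also the lowest for Id3, which was chosen for this, so nothing is read from it. The causes of these changes were not tested.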
